A study of Mus musculus with 12 samples.

Results

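The genes described here are 30 markers of T, natural killer (NK) and B lymphocytes, measured by RNA-seq in bulk Rd76-9 tumors of the mouse. They were chosen by name, as genes used to recognise these cells, out of 38894 genes summed from the deposited transcripts. Of the 30 genes, 27 mark T or NK cells and 3 mark B cells. The Rd76-9 line models embryonal rhabdomyosarcoma (RMS), a cancer of muscle-like cells, and was raised with a chemical carcinogen in C57BL/6, the background of the hosts. It was injected into the flank of wild-type C57/Bl6J mice of 8 to 12 weeks. All mice thus carried the same line and had their own immune system, and the 12 tumors were taken at day 16. Neither the labels nor the methods say whether each tumor came from a separate mouse, so p-values measure the spread between these tumors. Vehicle tumors (m1, m2 and m3) came from mice given saline and empty nanoparticles, VCR tumors (m4, m5 and m6) from mice given vincristine at 0.25 mg/kg, RCM1-NPFA tumors (m7, m8 and m9) from mice given 8 µg per injection of RCM1, an inhibitor of FOXM1, in folic acid-coated nanoparticles, and the combination tumors (m10, m11 and m12, VCR+RCM1-NPFA) from mice given both. The groups were taken from the sample titles, since the treatment label of the vehicle tumors names RCM1 as well. The study asked how the combination changes these tumors, and the values below describe the lymphocyte genes of the same libraries.

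T cells recognise antigen through a receptor that signals through the CD3 chains, with CD4 or CD8 as coreceptor and the kinases LCK and ZAP70 downstream. CD8 T cells and NK cells kill target cells with perforin and granzymes and secrete interferon gamma, regulatory T cells are marked by FOXP3, and exhausted or activated T cells carry PD-1, CTLA-4 and ICOS. NK cells carry NKp46, and B cells carry a receptor that signals through CD79A and CD79B. In solid tumors these cells are a variable minority beside macrophages. Because whole tumors were sequenced, fewer cells of a type and less RNA per cell cannot be told apart.

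The libraries were of like size, with between 29337835 and 32103617 estimated counts assigned to genes per tumor. Counts scaled by library size and TMM factors are given as CPM, that is, per 1000000 counts, and serve to compare tumors, and the deposited TPM, which takes transcript length into account, serves to compare genes. A gene with 3 or fewer estimated counts in a tumor was taken to be at the count floor there, which is about 0.0935 to 0.102 CPM. Adult skeletal muscle genes differed between tumors far more than the lymphocyte genes, with summed levels of 41.4 to 157 CPM in the vehicle tumors and up to 11710 CPM in m5 and 17740 CPM in m9. Summed Y-linked genes were at 16.2 CPM or more in 7 tumors (m3, m4, m6, m8, m9, m11 and m12) and at 1.30 CPM or less in the other 5, in every group. Both were tried as alternatives below, and their part in the lymphocyte values was otherwise not tested.

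Every lymphocyte gene was above the floor in at least 1 tumor, and 24 of the 30 were above it in all 12. Cd3e, the epsilon chain of CD3 and the T cell marker, was above the floor in every tumor, and Ncr1, the gene of NKp46 and the NK cell marker, in 11 of 12. The 6 genes that touched the floor were Ms4a1, the gene of the B cell protein CD20, in 7 tumors (m1, m2, m5, m6, m7, m10 and m12), Ifng, the gene of interferon gamma, in m3, m7, m8 and m10, Prf1, the gene of perforin, in m3, and Cd8b1, Ctla4 and Ncr1 in m8 alone. Only 1 estimated count of Ncr1 was found in m8 (95% exact Poisson interval 0.0253 to 5.57), and no count of Ifng in m3, where the floor of 3 counts is 0.0971 CPM. The interval and the floor cover counting error only. Cd4 and Cd8a were also above the floor in every tumor, with 13 and 30 estimated counts at the lowest. Cd4 is also found on some myeloid cells, so its counts alone do not show CD4 T cells in every tumor. Of the NK genes, Klrk1 and Klrb1c were above the floor in every tumor, and the faint Ncr1 in all but m8. The B cell genes Cd79a and Cd79b were above it in every tumor, at 11 to 337 and 25 to 202 estimated counts. Ms4a1 reached more than 8 counts in m4 alone.

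All of the genes were low. In TPM, the medians over the 12 tumors ran from 0.0578 for Ms4a1 to 4.72 for Cd3d, the delta chain of CD3. Behind Cd3d came Tcf7 at 4.66, a transcription factor of naive and memory-like T cells, Nkg7 at 4.10, a granule gene of cytotoxic cells, and Il2rb at 3.64, the interleukin-2 receptor beta chain of T and NK cells. At the other end stood Eomes at 0.259 and Icos at 0.293 TPM, and Ncr1 at 0.330. The ranges over tumors of genes next to each other in this order overlapped, and the ends of it did not, since Ms4a1 reached 1.91 TPM at most and Cd3d was never below 3.27. By comparison, the summed level of the 27 T and NK genes was 18.6 to 110.1 TPM per tumor, against 3817 to 5374 TPM for 12 macrophage, monocyte and neutrophil genes.

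**Figure D1:**
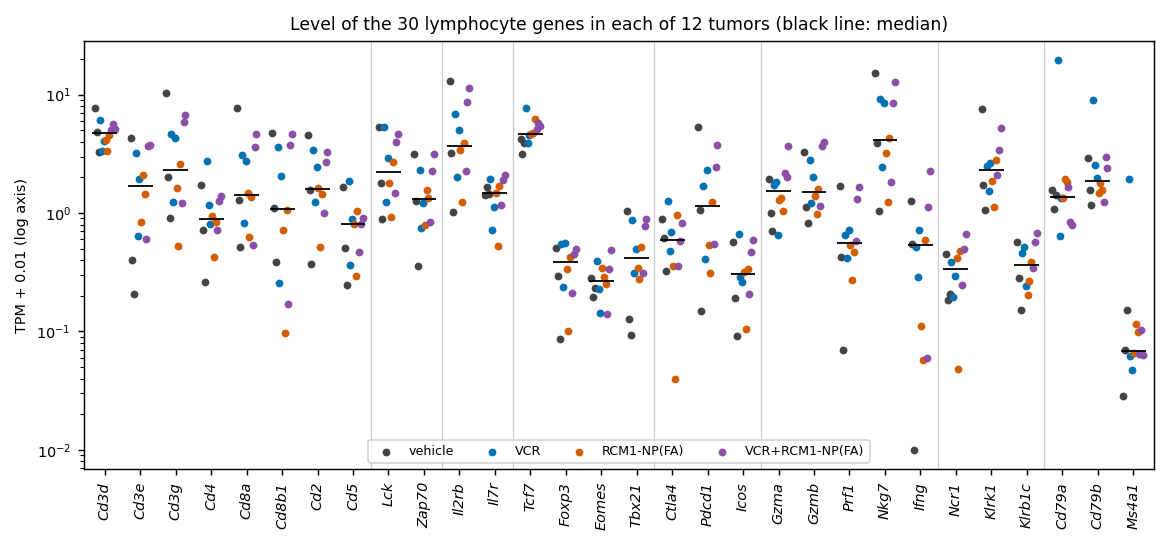
Level of each of the 30 lymphocyte genes in the 12 tumors, as TPM plus 0.01 on a log axis, with points coloured by group and a black line at the median, and grey lines between functional groups of genes. Cd3d and Tcf7 lie high with little scatter, Ms4a1 lies lowest apart from 1 VCR tumor, and the points of the 4 groups overlap for most genes.

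The promoters of 4 genes are shown because the genes stand for the 3 lineages and for the pair of CD3 chains that differed most in spread. They run from 250 bases before to 50 after the start in RefSeq (GRCm38.p6), 5′ to 3′ on the strand of the gene. Capitals mark AGGAAG, the core letters read by ETS factors, or its reverse complement CTTCCT in Cd3d, Cd3e and Cd79a, and TGTGGT, the core letters read by RUNX factors, or its reverse complement ACCACA in Ncr1. Cd3d lies at chr9:44981536-44981835 on the plus strand, Cd3e at chr9:45009562-45009861 on the minus strand, Ncr1 at chr7:4337465-4337764 and Cd79a at chr7:24897247-24897546, both on the plus strand.
Cd3d: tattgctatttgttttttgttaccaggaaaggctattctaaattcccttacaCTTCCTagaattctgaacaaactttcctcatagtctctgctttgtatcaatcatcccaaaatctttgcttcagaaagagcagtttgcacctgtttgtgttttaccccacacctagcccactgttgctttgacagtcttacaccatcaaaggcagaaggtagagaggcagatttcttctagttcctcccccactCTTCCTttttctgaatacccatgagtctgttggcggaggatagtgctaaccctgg
Cd3e: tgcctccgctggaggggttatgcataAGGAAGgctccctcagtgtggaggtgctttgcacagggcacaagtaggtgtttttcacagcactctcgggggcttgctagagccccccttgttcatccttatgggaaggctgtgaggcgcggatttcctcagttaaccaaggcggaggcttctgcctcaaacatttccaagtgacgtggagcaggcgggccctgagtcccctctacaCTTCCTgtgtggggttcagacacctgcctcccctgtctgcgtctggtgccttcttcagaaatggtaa
Ncr1: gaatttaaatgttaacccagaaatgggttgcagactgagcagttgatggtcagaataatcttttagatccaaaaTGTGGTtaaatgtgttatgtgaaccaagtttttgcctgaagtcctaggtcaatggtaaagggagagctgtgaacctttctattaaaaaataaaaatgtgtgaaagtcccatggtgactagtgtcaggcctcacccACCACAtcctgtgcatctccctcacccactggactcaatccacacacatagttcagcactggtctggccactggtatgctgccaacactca
Cd79a: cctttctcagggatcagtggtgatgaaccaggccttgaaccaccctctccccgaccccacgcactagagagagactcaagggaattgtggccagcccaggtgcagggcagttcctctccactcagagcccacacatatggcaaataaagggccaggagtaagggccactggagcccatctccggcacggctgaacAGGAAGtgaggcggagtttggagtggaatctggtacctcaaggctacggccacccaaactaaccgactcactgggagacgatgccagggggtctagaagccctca

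Of the 30 genes, 23 had a promoter in that table, in 29 windows. AGGAAG, on either strand, was in 16 of the 29 and in 35.4% of all 32851 promoters, and TGTGGT in 11 of the 29 and in 16.8% of all. CCCNNGGG, core letters read by EBF1 of B cells, was in 2 of 29 (13.7% of all), and AGGTGTGA, core letters read by T-box factors, in 1 of 29 (1.28% of all). Cd3d and Cd3e each hold 2 matches of AGGAAG although their spread over tumors, 2.13-fold and 19.5-fold, was unlike. Matches are a description of the letters in these windows and were not related to binding here.

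Among the CD3 chains, Cd3g, the gamma chain, measured 5.25, 1.04 and 0.504 CPM in the vehicle tumors, 2.60, 0.728 and 2.27 after VCR, 0.861, 0.287 and 1.39 after RCM1-NPFA and 0.609, 3.07 and 3.65 after the combination. It was highest in m1 and lowest in m8, and every treated group overlapped the vehicle tumors. Its log2 fold change was -0.28 (SE 0.85, adjusted p = 0.879) after VCR, -1.42 (SE 0.90, adjusted p = 0.647) after RCM1-NPFA and 0.10 (SE 0.85, adjusted p = 0.988) after the combination, by edgeR's quasi-likelihood test with Benjamini-Hochberg adjustment, as for all adjusted p-values below unless DESeq2 is named.

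Cd3e gave 3.27, 0.302 and 0.168 CPM in the vehicle tumors, 2.70, 0.562 and 1.53 after VCR, 0.695, 1.76 and 1.17 after RCM1-NPFA and 0.457, 2.88 and 3.14 after the combination. Here too m1 was the highest and m3 the lowest tumor, 19.5-fold apart although both were vehicle-treated. The log2 fold change of Cd3e was 0.34 (SE 0.96, adjusted p = 0.868) after VCR, -0.060 (SE 0.97, adjusted p = 0.992) after RCM1-NPFA and 0.77 (SE 0.95, adjusted p = 0.871) after the combination. In m8 the chains disagreed, with 55 estimated counts of Cd3e against 9 of Cd3g, a ratio of 6.11 where the other 11 tumors had 0.290 to 1.04. Cd3d ranged only from 3.27 to 7.72 TPM (median 4.72), and was 8.67 times Cd3g in m8 and 1.01 times Cd3g in m1 (ratios of CPM). In the GENCODE M21 annotation, exons of Cd3e overlap an antisense gene, Gm48719, and the study describes its libraries both by a stranded kit and as non-stranded, so reads of both strands may be counted together.

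For the coreceptors, Cd8a, which marks cytotoxic T cells, was at 13.6, 2.29 and 1.01 CPM in the vehicle tumors, 5.998, 1.65 and 5.005 after VCR, 2.75, 1.18 and 2.52 after RCM1-NPFA and 0.914, 6.54 and 8.74 after the combination. The highest and lowest tumors, m1 and m10, were 14.9-fold apart. No group was set apart, and the log2 fold change was -0.42 (SE 0.90, adjusted p = 0.827) after VCR, -1.39 (SE 0.93, adjusted p = 0.672) after RCM1-NPFA and -0.064 (SE 0.90, adjusted p = 0.992) after the combination. The partner chain Cd8b1 ranged from 0.0868 to 4.75 TPM (median 1.07) with the lowest TPM in m8 and the highest in m1, close to the 4.68 of m12.

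Cd4, which marks helper and regulatory T cells and is also found on some myeloid cells, had 2.99, 1.18 and 0.437 CPM in the vehicle tumors, 5.05, 2.35 and 1.43 after VCR, 1.75, 0.798 and 1.39 after RCM1-NPFA and 1.22, 2.07 and 2.50 after the combination. It was highest in m4 and lowest in m3. Cd4 had a log2 fold change of 0.93 (SE 0.61, adjusted p = 0.397) after VCR, -0.23 (SE 0.63, adjusted p = 0.941) after RCM1-NPFA and 0.32 (SE 0.62, adjusted p = 0.922) after the combination. The ratio of Cd8a to Cd4 CPM ran from 0.704 in m5 to 4.54 in m1, and m10 also had less Cd8a than Cd4, with 0.750. Of the other T cell surface genes, Cd2, an adhesion receptor, ranged from 0.363 to 4.59 TPM (median 1.58) and Cd5, a regulator of receptor signalling, from 0.238 to 1.84 TPM (median 0.803).

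The receptor kinases Lck and Zap70 and the cytokine receptor Il2rb were highest in m1, m4, m11 and m12, as was Cd3g. Lck lay between 0.877 and 5.37 TPM (median 2.23) and Zap70 between 0.344 and 3.15 TPM (median 1.30). Il2rb ranged from 1.01 to 12.96 TPM (median 3.64), with m1 highest and m3 lowest. Il7r, the interleukin-7 receptor of resting T cells, differed less, from 0.514 to 2.07 TPM (median 1.45), and its 3 vehicle tumors were nearly equal at 2.59, 2.86 and 2.86 CPM. Of these 4 genes, none passed the test against vehicle after any treatment.

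Tcf7 was the only gene of the 30 with every treated tumor above every vehicle tumor in all 3 comparisons, a pattern that 2.4% of all 17599 tested genes had. It measured 7.28, 5.68 and 7.39 CPM in the vehicle tumors, 14.4, 8.07 and 8.87 after VCR, 8.77, 8.81 and 11.1 after RCM1-NPFA and 8.68, 11.3 and 10.4 after the combination. The highest vehicle tumor had 7.39 CPM and the lowest treated tumor 8.07 CPM. Its log2 fold change was 0.62 (SE 0.22, adjusted p = 0.139) after VCR, 0.49 (SE 0.22, adjusted p = 0.489) after RCM1-NPFA and 0.58 (SE 0.22, adjusted p = 0.670) after the combination, so that it missed the threshold of 0.1 each time. The value after VCR was 0.32 without m4 and 0.78 without m5. The exact permutation test (two-sided, 3 against 3 tumors) gave p = 0.1 in each comparison, the smallest p it can give. The comparisons share the 3 vehicle tumors and are not independent of each other. DESeq2 called Tcf7 higher after VCR, with an adjusted p of 0.0599. Tcf7 did not follow the other T cell genes within the vehicle group, where m1, highest for most of them, had 7.28 CPM and m3, lowest for most, had 7.39.

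The other lineage transcription factors were lower. Foxp3, which defines regulatory T cells, had 34.97, 18.3 and 5.37 estimated counts in the vehicle tumors, 40.3, 17.0 and 37.7 after VCR, 22.6, 6.47 and 29.7 after RCM1-NPFA and 13.9, 29.9 and 35.7 after the combination, above the floor in every tumor. Each group held low and high tumors. The log2 fold change of Foxp3 was 0.72 (SE 0.64, adjusted p = 0.550) after VCR, 0.024 (SE 0.66, adjusted p = 0.995) after RCM1-NPFA and 0.45 (SE 0.65, adjusted p = 0.896) after the combination. Foxp3 shares exonic sequence with Ppp1r3f and Ccdc22 on the opposite strand and Flicr on its own (GENCODE M21), which leaves its few counts uncertain. Tbx21, the gene of T-bet of type 1 T cells and NK cells, ranged from 0.0842 to 1.04 TPM (median 0.408).

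Eomes, a T-box factor of cytotoxic T and NK cells, was at 0.586, 0.370 and 0.504 CPM in the vehicle tumors, 0.889, 0.529 and 0.292 after VCR, 0.728, 0.638 and 0.535 after RCM1-NPFA and 0.274, 0.712 and 1.09 after the combination. It had no order by group, with the highest value in m12 and the lowest in m10, both combination tumors. Its log2 fold change was 0.23 (SE 0.49, adjusted p = 0.827) after VCR, 0.37 (SE 0.49, adjusted p = 0.854) after RCM1-NPFA and 0.50 (SE 0.48, adjusted p = 0.823) after the combination. Eomes overlaps an antisense gene, Gm33460 (GENCODE M21), so the limit given for Cd3e holds here too.

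Of the costimulatory and inhibitory receptors, Pdcd1, the gene of PD-1, had the widest fold among those above the floor in every tumor. It gave 5.77, 1.14 and 0.168 CPM in the vehicle tumors, 1.97, 0.496 and 2.57 after VCR, 0.596, 0.351 and 1.39 after RCM1-NPFA and 0.579, 2.72 and 4.32 after the combination. The vehicle tumors m1 and m3 were 34.3-fold apart, which was wider than the difference between any treated group and vehicle for this gene. Pdcd1 had a log2 fold change of -0.50 (SE 0.99, adjusted p = 0.811) after VCR, -1.60 (SE 1.04, adjusted p = 0.662) after RCM1-NPFA and 0.097 (SE 0.98, adjusted p = 0.989) after the combination. Icos measured 1.05, 0.336 and 0.168 CPM in the vehicle tumors, 1.33, 0.596 and 0.487 after VCR, 0.596, 0.224 and 0.629 after RCM1-NPFA and 0.365, 0.938 and 1.15 after the combination, with m4 highest and m3 lowest. Its log2 fold change was 0.62 (SE 0.66, adjusted p = 0.620) after VCR, -0.11 (SE 0.68, adjusted p = 0.977) after RCM1-NPFA and 0.64 (SE 0.66, adjusted p = 0.835) after the combination. Ctla4 ranged from 0.0297 to 1.26 TPM (median 0.584) and was highest in m4, with 46 estimated counts against 1 in m8, which is at the floor.

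Among the cytotoxic effector genes, Gzma, the gene of granzyme A, was separated in the combination. It had 0.833, 0.437 and 0.336 CPM in the vehicle tumors, 0.825, 0.926 and 0.292 after VCR, 0.596, 0.638 and 0.472 after RCM1-NPFA and 0.944, 0.906 and 1.73 after the combination. All combination tumors were above all vehicle tumors, a pattern that 7.1% of all 17599 tested genes had. The vehicle tumor m1 at 0.833 and the combination tumor m11 at 0.906 CPM lay close together. The log2 fold change was 0.34 (SE 0.46, adjusted p = 0.710) after VCR, 0.078 (SE 0.47, adjusted p = 0.977) after RCM1-NPFA and 1.14 (SE 0.45, adjusted p = 0.679) after the combination, and the unadjusted p of the combination was 0.0265 (two-sided exact permutation test of 3 against 3, p = 0.1, its smallest). Gzmb, the gene of granzyme B, had 2.65, 0.907 and 0.739 CPM in the vehicle tumors, 2.51, 1.12 and 1.69 after VCR, 1.19, 0.862 and 1.35 after RCM1-NPFA and 0.914, 3.04 and 3.46 after the combination. Its vehicle and combination tumors overlapped, since m10 lay near m2. The log2 fold change of Gzmb was 0.30 (SE 0.55, adjusted p = 0.789) after VCR, -0.34 (SE 0.56, adjusted p = 0.896) after RCM1-NPFA and 0.78 (SE 0.54, adjusted p = 0.768) after the combination. Prf1 ranged from 0.0602 to 1.69 TPM (median 0.551), Nkg7 from 1.03 to 15.2 TPM (median 4.10) and Ifng from 0 to 2.26 TPM (median 0.523). Ifng was highest in m12, with 47 estimated counts, and at 1 or 2 counts in m7, m8 and m10.

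The NK receptors split into a faint and a stronger group. Ncr1, the most specific of them, had 11, 4 and 5 estimated counts in the vehicle tumors, 10, 5 and 7 after VCR, 10, 1 and 12 after RCM1-NPFA and 6, 12 and 17 after the combination. Ncr1 had 17 counts at most, and every treated group overlapped the vehicle tumors. Its log2 fold change was 0.13 (SE 0.69, adjusted p = 0.930) after VCR, 0.19 (SE 0.68, adjusted p = 0.959) after RCM1-NPFA and 0.77 (SE 0.65, adjusted p = 0.798) after the combination. The part of depth in these values was not tested. Klrb1c, the gene of NK1.1, a marker of C57BL/6 NK cells, measured 0.833, 0.403 and 0.235 CPM in the vehicle tumors, 0.730, 0.860 and 0.357 after VCR, 0.298, 0.415 and 0.598 after RCM1-NPFA and 0.487, 0.841 and 1.06 after the combination. Its highest level was in m12 and its lowest in m3. In GENCODE M21 Klrb1c overlaps the protein-coding gene Gm44511 on the same strand, which leaves its few counts uncertain. Klrb1c had a log2 fold change of 0.39 (SE 0.49, adjusted p = 0.683) after VCR, -0.17 (SE 0.51, adjusted p = 0.949) after RCM1-NPFA and 0.68 (SE 0.48, adjusted p = 0.772) after the combination. Klrk1, the gene of NKG2D, which is also found on activated CD8 T cells, was higher, at 1.06 to 7.48 TPM (median 2.30), and like Cd8a was highest in m1.

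B cell genes were at a low level in 11 tumors and high in 1. Cd79a, the alpha chain of the B cell receptor complex, had 25, 16 and 23 estimated counts in the vehicle tumors, 337, 11 and 21 after VCR, 21, 33 and 30 after RCM1-NPFA and 27, 13 and 13 after the combination. The 337 counts of m4 compare with 33 at most elsewhere. Cd79b, the beta chain, had 60, 30 and 25 estimated counts in the vehicle tumors, 202, 57 and 40 after VCR, 30, 39 and 33 after RCM1-NPFA and 26, 61 and 52 after the combination, and Ms4a1 had 1, 3 and 8 estimated counts in the vehicle tumors, 111, 3 and 2 after VCR, 3, 6 and 5 after RCM1-NPFA and 3, 5 and 3 after the combination. Scaled to CPM, m4 was 10.2-fold above the next tumor for Cd79a, 3.25-fold for Cd79b and 13.1-fold for Ms4a1. The log2 fold change of Cd79a was 2.49 (SE 0.96, adjusted p = 0.167) after VCR, 0.37 (SE 0.98, adjusted p = 0.939) after RCM1-NPFA and -0.32 (SE 1.01, adjusted p = 0.961) after the combination. That of Cd79b was 1.37 (SE 0.55, adjusted p = 0.181) after VCR, -0.18 (SE 0.57, adjusted p = 0.953) after RCM1-NPFA and 0.25 (SE 0.56, adjusted p = 0.936) after the combination. Without m4 the value after VCR became -0.40 for Cd79a and 0.36 for Cd79b, so it rests on that tumor. Ms4a1 was not tested, because too few tumors held enough counts.

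Further B cell and lymph node genes were high in the same tumor. Of 18 B and plasma cell genes, the 3 above included, 16 were highest in m4, and of 7 genes of lymph node stroma and high endothelial venules 6 were. Cr2 is in both lists and is counted in each. Some led by little. Among the 16, Jchain had 202.5 estimated counts in m4 and 161.6 in m1, and Ly6d had 66 in m4 and 59 in m2. Among the 6, Tnfsf11 was hardly higher, with 27 estimated counts in m4 and 26 in m10. The following genes were picked after their values were seen, Ccl21a from a list of chemokines and chemokine receptors and the others from the lists above. Pax5, the B lineage factor, had 104 estimated counts in m4 and 14 at most elsewhere. Ccl21a, a chemokine of lymph node stroma that attracts T cells, had 592 counts in m4 and 47.6 at most elsewhere. Glycam1, an adhesion ligand of high endothelial venules, had 51 counts in m4 and 1 or 0 in the other tumors, at least 15.8-fold higher against the floor of 3 counts per tumor. The summed lymph node list, which does not hold Ccl21a, came to 7.59 CPM in m4 and 0.605 to 1.28 CPM in the other 11. Of the sum in m4, 2.095 CPM were of Cr2. T and NK genes were also high in m4, where 7 of the 27 were highest, Cd4, Lck and Icos among them. The part of lymph node tissue in the values of m4 was not tested.

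**Figure D2:**
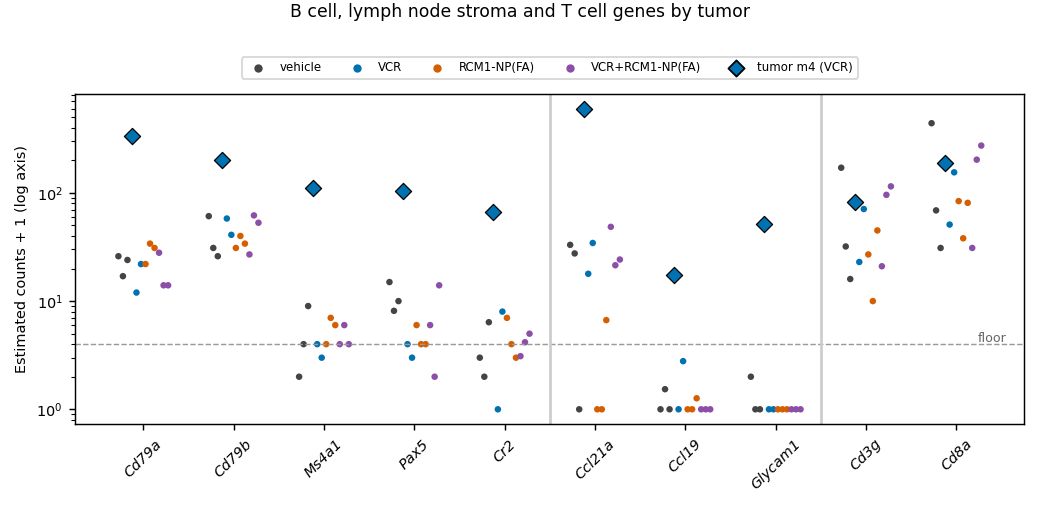
Estimated counts plus 1 (log axis) of 5 B cell genes, 3 lymph node stroma genes and 2 T cell genes in the 12 tumors, coloured by group, with the VCR tumor m4 as a diamond and the count floor as a dashed line. For the B cell and lymph node genes m4 stands above all other tumors, with 337 counts of Cd79a and 592 of Ccl21a, whereas for Cd3g and Cd8a it lies within their range.

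Variation between tumors of the same group was the main feature of the T and NK genes. The summed level of the 27 genes was 110.1, 34.9 and 18.6 TPM in the vehicle tumors, 76.3, 27.9 and 54.3 after VCR, 35.3, 23.0 and 45.4 after RCM1-NPFA and 30.6, 75.8 and 95.01 after the combination. The lowest and the highest tumor of all 12 were both vehicle tumors. Group means were 54.6 ± 48.8, 52.9 ± 24.2, 34.6 ± 11.2 and 67.2 ± 33.1 TPM (SD, n = 3 tumors each), and every difference between them was smaller than the SD of the vehicle group.

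The same tumors were high for most genes. In CPM, 11 of the 27 genes were highest of all tumors in m1, 9 in m12 and 7 in m4, and 17 were lowest in m3 and 6 in m8. Within the groups, m1 was the highest vehicle tumor for 25 genes and m3 the lowest for 23. In the combination m12 was the highest for 25 and m10 the lowest for 26, after VCR m4 was the highest for 21 and m5 the lowest for 22, and after RCM1-NPFA m9 was the highest for 19 and m8 the lowest for 21. These orders are within groups. Over all 12 tumors, m1, m4, m11 and m12 were among the 3 highest for 19, 14, 15 and 24 of the 27 genes. The RCM1-NPFA tumors m7, m8 and m9 were among the 3 highest for 1, 0 and 4, and m2, m3, m5, m6 and m10 for 0, 0, 2, 1 and 1. Tumors m3 and m8 were among the 3 lowest for 22 and 21, followed by the combination tumor m10 for 12, the vehicle tumor m2 for 11 and the VCR tumor m5 for 8.

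The fold between the highest and the lowest tumor had a median of 7.91 over the 22 T and NK genes that were above the floor in every tumor (range 2.13 to 34.3). It was 1.57 over all 16564 tested genes above the floor in every tumor, and 2.18 over the 5134 tested genes in the same range of mean CPM. Of 12 macrophage, monocyte and neutrophil genes (median fold 1.67), 9 had a fold under 2, with 1.5 for Csf1r, the receptor of macrophage colony-stimulating factor, 1.44 for Adgre1, the gene of F4/80, and 1.53 for Cd68. The other 3, all low in these tumors, varied more, with 13.2 for Ly6c2 of monocytes and 8.79 and 4.43 for S100a8 and S100a9 of neutrophils and monocytes. Ptprc, the gene of CD45 on all leukocytes, had a fold of 2.14. Csf1r, Adgre1, Cd68, Ptprc and the 3 variable genes were picked after their values were seen. The rarest lymphocyte genes had few counts, so that their folds carry counting error.

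**Figure D3:**
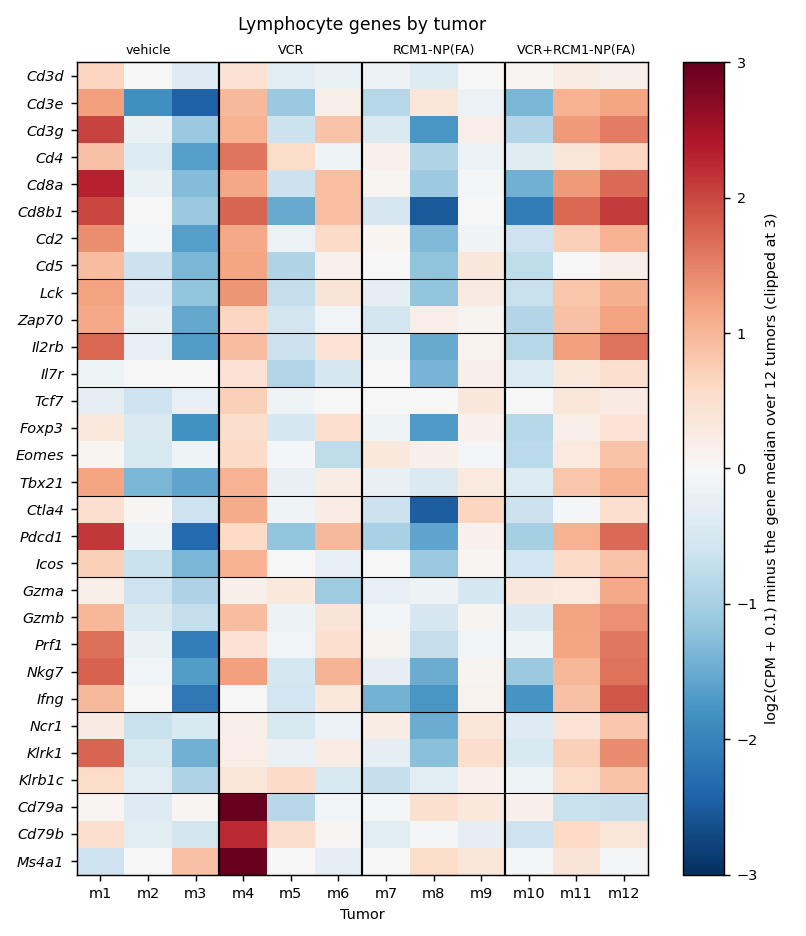
Heat map of the 30 lymphocyte genes (rows, by function) in the 12 tumors (columns, by group), coloured by log2(CPM + 0.1) minus the median of the gene. Columns m1, m4, m11 and m12 are red and m3, m8 and m10 blue for most T and NK genes, while the 3 B cell genes at the bottom are dark red in m4 only.

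Pairs of genes were then compared over the 12 tumors, on log2(CPM + 0.1), with 100000 permutations and Benjamini-Hochberg adjustment over 5 pairs with Cd3e. Cd3e and Cd8a rose and fell together, with Pearson's r = 0.805 (permutation p = 0.00238, adjusted 0.0119) and Spearman's rho = 0.846 (p = 0.00093, adjusted 0.00465). The relation was r = 0.822 without m2 and m3, the tumors farthest from the median of Cd3e, and 0.887 within groups. Cd3e and Ptprc gave r = 0.611 (permutation p = 0.0310, adjusted 0.0775), rho = 0.678 (p = 0.0190, adjusted 0.0475), 0.756 without those tumors and 0.884 within groups. The r of this pair missed an adjusted p of 0.05, and its rho did not.

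For Ncr1 the relation with Cd3e missed an adjusted p of 0.05 by both measures, at r = 0.474 (permutation p = 0.119, adjusted 0.157) and rho = 0.636 (p = 0.0305, adjusted 0.0508), with 0.371 without those 2 tumors and 0.427 within groups. At 0.1, the threshold of the edgeR tests, the rho of Ncr1 would pass and its r would not. Cd79a did not follow Cd3e, at r = 0.244 (permutation p = 0.521, adjusted 0.521) and rho = -0.021 (p = 0.956, adjusted 0.956), with 0.232 without the 2 tumors and 0.278 within groups. Ckm, the muscle creatine kinase, had r = 0.471 with Cd3e (permutation p = 0.126, adjusted 0.157) and rho = 0.280 (p = 0.381, adjusted 0.476), which turned to -0.21 without m2 and m3 and so rests on them, and was 0.313 within groups.

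Because Cd3e was out of line with Cd3g in m8, 8 pairs with Cd3g were computed after seeing the data. Cd3g and Cd8a gave r = 0.965 and rho = 0.951 (permutation p = 1e-05 for both, the smallest that 100000 permutations can give, adjusted 8e-05), with 0.971 without m1 and m8 and 0.974 within groups. Cd3g and Ncr1 gave r = 0.794 (permutation p = 0.0018, adjusted 0.0036) and rho = 0.783 (p = 0.00366, adjusted 0.00586), with 0.741 without those tumors and 0.821 within groups. Cxcl9, a chemokine induced by interferon gamma that attracts T cells, gave r = 0.923 with Cd3g (permutation p = 2e-05, adjusted 8e-05) and rho = 0.944 (p = 5e-05, adjusted 0.0002), with 0.899 without those tumors and 0.927 within groups. Cd3g and Cd3d had r = 0.817 (permutation p = 0.00107, adjusted 0.00285) and rho = 0.818 (p = 0.00195, adjusted 0.0039), with 0.676 without those tumors and 0.800 within groups. Cd3g and Cd3e had r = 0.725 (permutation p = 0.0101, adjusted 0.0134) and rho = 0.762 (p = 0.00568, adjusted 0.00757), with 0.942 without those tumors and 0.827 within groups. Cd3g and Ptprc had r = 0.746 (permutation p = 0.0036, adjusted 0.00576) and rho = 0.881 (p = 0.00041, adjusted 0.00109), with 0.693 without those tumors and 0.912 within groups. The relations of Cd3g with Ckm (r = 0.269, permutation p = 0.396, adjusted 0.452) and with Cd79a (r = 0.0897, permutation p = 0.842, adjusted 0.842) did not pass, nor did their rho of 0.259 and -0.29 (adjusted permutation p = 0.417 for both). They were 0.370 and 0.191 without m1 and m8, and 0.412 and 0.150 within groups.

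**Figure D4:**
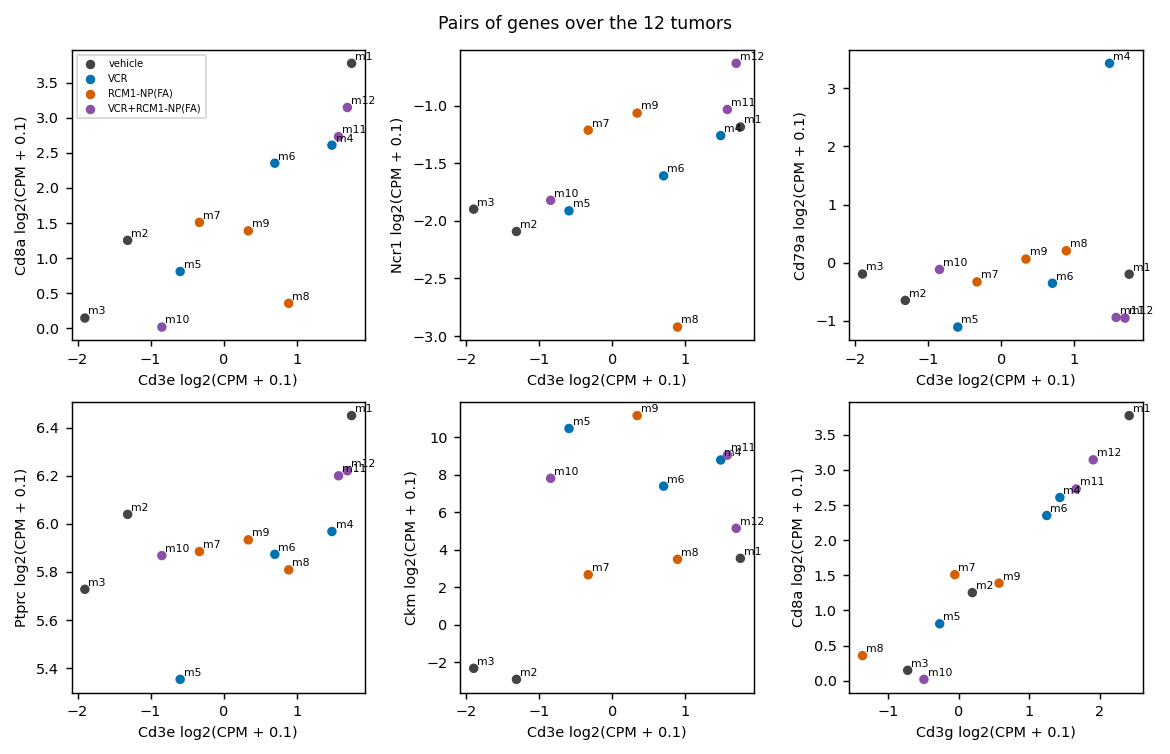
Levels of 6 pairs of genes in the 12 tumors, with log2(CPM + 0.1) on each axis and points coloured by group and named by tumor. Cd8a rises with Cd3e (r = 0.805) except in m8 and follows Cd3g closely (r = 0.965), and Cd79a is high in m4 alone.

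Against the vehicle tumors, edgeR called 0 of the 29 lymphocyte genes tested after VCR, where 5.55% of all 17599 genes were called (976 genes). After RCM1-NPFA it called 0 of 29, and 0.0% of all genes, and in the combination 0 of 29, and 0.0% of all genes. At an unadjusted p under 0.05 there were 3 of the 29 after VCR (Tcf7, Cd79a and Cd79b) against 3890 of all 17599 genes, 1 after RCM1-NPFA (Tcf7) against 1722, and 2 in the combination (Tcf7 and Gzma) against 1285. The share of the 29 was below that of all genes each time. DESeq2 called 2 of the 29 after VCR, Tcf7 and Cd79b (adjusted p = 0.0599 and 0.0949), where it called 13.5% of all genes, and none in the other comparisons with vehicle. limma-voom called none. DESeq2 gave no adjusted p for Cd79a after VCR. Without m6 edgeR called Cd79a and Cd79b (adjusted p = 0.0864 and 0.0876), where it called 11.1% of all genes. Without m2, m4 or m5, edgeR called 0 of all genes after VCR as well.

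Fold changes leaned one way in several comparisons without any gene passing. After RCM1-NPFA 23 of the 29 were below 0 (median log2 fold change -0.26, all genes 0.0028), and in the combination 24 were above 0 (median 0.43, all genes 0.0016). After VCR 19 were above and 10 below 0 (median 0.23, all genes 0.0017). Between the combination and RCM1-NPFA 28 were above 0 (median 0.83, all genes -0.0057), and this comparison and the 3 with vehicle share tumors. No test was made of the list as a whole, and most of its genes followed the same few tumors, so their directions are not independent. Single tumors weighed heavily, and without m1, the RCM1-NPFA fold change of Cd8a was 0.38 and that of Cd3g 0.13, in place of -1.39 and -1.42.

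In terms of separation, 1 of the 29 genes had every tumor above the vehicle tumors after VCR (13.5% of all genes) and 0 every tumor below (10.9%). After RCM1-NPFA it was 1 above (5.56% of all genes) and 0 below (5.86%), and in the combination 2 above (7.1%) and 0 below (5.53%). These shares were near or below those of all genes. The separated genes were Tcf7 each time and Gzma in the combination.

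**Figure D5:**
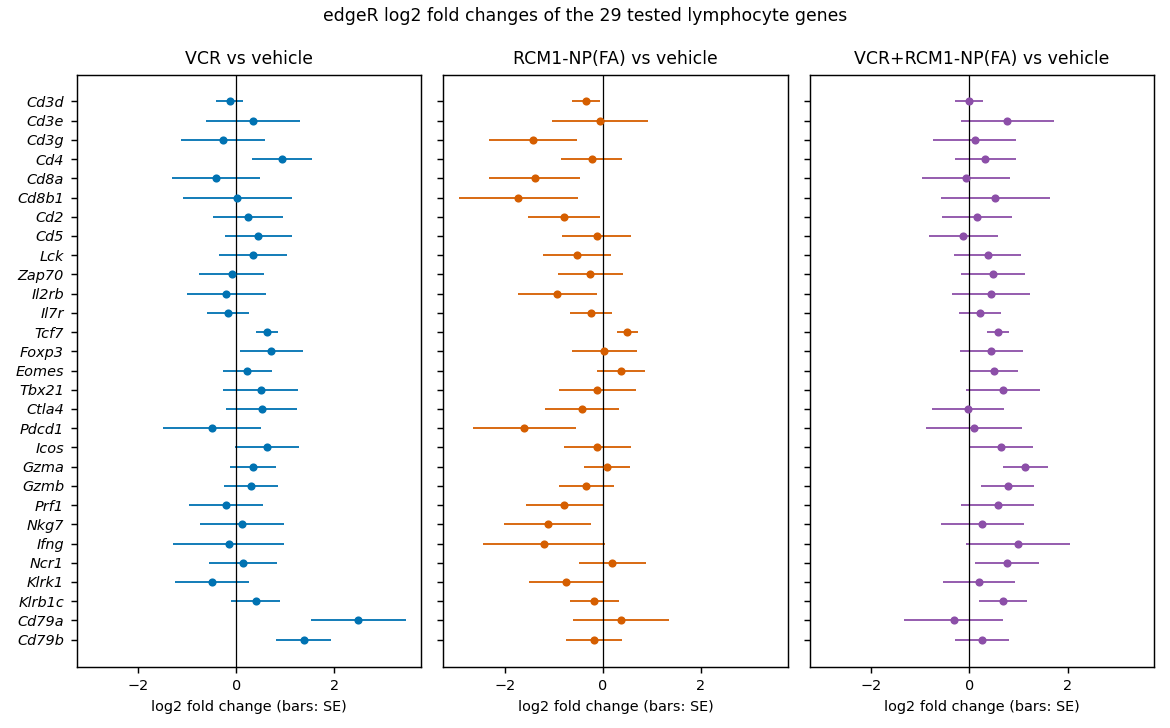
Log2 fold changes against vehicle of the 29 tested lymphocyte genes from edgeR, with bars of 1 standard error, in the VCR, RCM1-NPFA and combination tumors. Most bars cross or come near 0, the bars are long for Cd8a, Cd8b1 and Pdcd1 and short for Tcf7, and Cd79a lies highest after VCR at 2.49.

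The other comparisons of the design gave no call either. The edgeR test called 0 of the 29 genes, and 0.0% of all genes, when the combination was set against VCR or against RCM1-NPFA alone, in the main effect of VCR, in the main effect of RCM1-NPFA and in the interaction. At an unadjusted p under 0.05 there were 1, 1, 2, 0 and 1 of the 29, against 925, 364, 1846, 439 and 2437 of all 17599 genes. The share of the 29 was below that of all genes except against RCM1-NPFA alone, where it was 1 gene. DESeq2 and limma-voom also called none of the 29. The B cell gene Cd79a was lower in the combination than after VCR by a log2 fold change of -2.81 (SE 0.98, adjusted p = 0.855), a comparison that again holds m4. In the main effect of VCR, which averages over RCM1-NPFA given or not, all 29 fold changes were above 0 (median 0.59, all genes 0.0032). Most of the genes followed the same few tumors, so these directions are not independent of each other. Those of Cd79a and Cd79b again hold m4, and the list as a whole was not tested. For single genes, the exact permutation test of the 6 tumors given VCR against the 6 not given it reached p = 0.0887 for Klrb1c and p = 0.0909 for Tcf7, where the smallest p possible is 0.00217.

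Gene lists beside the 30 genes were examined for the same pattern. The test covered 19 of 20 further T cell genes, 12 of 12 genes of exhaustion and regulation, 16 of 20 of NK and cytotoxic cells, 9 of 15 of B and plasma cells and 12 of 15 ligands of the receptors above, and edgeR called 0 of them after any treatment. At an unadjusted p under 0.05 these lists held 3, 1, 0, 2 and 1 genes after VCR, 1, 1, 1, 0 and 1 after RCM1-NPFA and 0, 1, 0, 0 and 0 after the combination. Of all 17599 tested genes, 3890, 1722 and 1285 were under it in these comparisons, and edgeR called 5.55%, 0.0% and 0.0%. Of 14 tested among 16 chemokines and chemokine receptors edgeR called 1 lower after VCR, where 5.55% of all genes were called. It was Cxcr4, the receptor of CXCL12, which went from 29.6, 22.5 and 32.0 CPM in the vehicle tumors to 19.9, 22.3 and 18.5 CPM (log2 fold change -0.47, SE 0.14, adjusted p = 0.0992). The adjusted p was 0.111 to 0.301 in 10 of the 12 fits that left out 1 tumor. Not all genes that carry a lymphocyte name followed the lymphocyte genes. Tigit, an inhibitory receptor, and Klra4, of the Ly49 family whose close paralogs can share reads, stayed at 53.1 to 66.4 and 31.4 to 48.4 CPM in all tumors, and Thy1, found on T cells and on fibroblasts, at 7.97 to 35.6 CPM. These 3 were picked after their values were seen. Their medians of 58.4, 37.7 and 25.0 CPM were above those of all 30 genes described here.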

How the data were processed

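RNA-seq of 12 bulk Rd76-9 tumors was analysed, 3 for each of vehicle, VCR, RCM1-NPFA and VCR+RCM1-NPFA. The authors made poly-A enriched libraries, quantified GRCm38 transcripts with kallisto (version not given in the sources used here) and deposited estimated counts, which are not normalized, and TPM values for each transcript. Of the 120299 transcripts per tumor, 120289 were matched to RefSeq genes and 10 were left out. Estimated counts and TPM were summed per gene, and the counts rounded for tests.

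Genes passing filterByExpr (minimum count 10) were tested with edgeR 4.0.16 (R 4.3.3) by the quasi-likelihood F test after TMM normalization, in one fit of the 4 groups, with Benjamini-Hochberg adjustment over 17599 genes and a threshold of 0.1. Log2 CPM used a pseudocount of 0.1. Exact permutation tests and correlations were run in Python 3.11.15 with scipy 1.17.1. Whether each tumor came from its own mouse is not given in the sources used here. The alternatives were the authors' tool DESeq2 (version 1.42.0, Wald test), limma-voom from limma 3.58.1, DESeq2 size factors, no filter, only the groups compared, a threshold of 0.05, each tumor left out, m5 and m9 left out together, and a term for Y-linked transcripts. The fits were tested on simulated data.

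The genes and lists were chosen with earlier results of these data known. Full statistics are given for Cd3e, Cd4, Cd8a, Foxp3, Gzmb, Ncr1, Klrb1c, Cd79a and Ms4a1, for any of the 30 genes past the threshold in any of the 8 edgeR comparisons, and for the 3 others with the lowest unadjusted p against vehicle in each treated group. Genes of other lists were to be named where they pass, or as the 2 most and 2 least abundant of their list, and others that are named were picked after their values were seen. 1 gene of the further B cell list is not reported here.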

Additional observations from a re-analysis of the deposited data

How the results depend on the processing

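Of 899 values of the log2 fold changes of named genes under the alternatives, 66 reversed in direction and 4 passed the threshold, and 25 of the 45 log2 fold changes reversed under at least 1. The count of lymphocyte genes called after VCR was 2 with DESeq2 and 0 to 2 with single tumors left out (2 without m6), and the other alternatives gave 0. limma-voom reversed, after VCR, Cd8a (0.19), Cd3g (0.18) and Pdcd1 (0.32), after RCM1-NPFA Cd3e (0.94), Cd4 (0.074), Ncr1 (-0.21) and Icos (0.12), and after the combination Cd8a (0.19). Without m5 and m9 together, Cd3g after VCR was 0.095, and after RCM1-NPFA Foxp3 was -0.39 and Ncr1 -0.26. The planned Y-linked term, with a limit of 1 CPM, left only m5 and m7 below it, and gave 0.34 for Cd3e, 0.032 for Cd79b and -0.062 for Gzma after RCM1-NPFA. A limit of 5 CPM, chosen after seeing the data, gave -0.38 for Cd3e after VCR, -0.016 for Foxp3 after RCM1-NPFA, and -0.30 for Cd3g and -0.54 for Pdcd1 after the combination. The correlation of Cd3e with Ckm was -0.21 without m2 and m3. The cause was not tested. Over the fits that omit 1 tumor, values after VCR ran from -0.26 to 2.74 for Cd3e, -0.91 to 1.36 for Cd8a, -0.031 to 1.10 for Gzmb, -0.13 to 0.64 for Ncr1, -0.40 to 3.03 for Cd79a, -0.75 to 1.27 for Cd3g, -1.04 to 1.35 for Pdcd1 and -0.25 to 0.51 for Eomes. Over the fits that omit 1 tumor, values after RCM1-NPFA ran from -0.57 to 2.34 for Cd3e, -0.67 to 0.70 for Cd4, -1.88 to 0.38 for Cd8a, -0.42 to 0.70 for Foxp3, -0.65 to 0.46 for Gzmb, -0.26 to 0.71 for Ncr1, -0.50 to 0.45 for Klrb1c, -0.39 to 0.24 for Cd79b, -0.53 to 0.93 for Icos, -1.99 to 0.13 for Cd3g, -2.32 to 0.25 for Pdcd1 and -0.16 to 0.55 for Gzma. Over the fits that omit 1 tumor, values after the combination ran from -0.12 to 1.25 for Cd4, -0.60 to 1.71 for Cd8a, -0.030 to 0.67 for Cd79b, -0.37 to 1.65 for Cd3g and -0.53 to 1.95 for Pdcd1. The ranges that stayed on one side of 0 were, after VCR, 0.29 to 1.86 for Cd4, 0.28 to 1.40 for Foxp3, 0.064 to 1.01 for Klrb1c, 0.32 to 0.78 for Tcf7, 0.36 to 1.79 for Cd79b, 0.051 to 1.66 for Icos and 0.058 to 0.81 for Gzma. They were, after RCM1-NPFA, 0.21 to 0.52 for Cd79a, 0.37 to 0.56 for Tcf7 and 0.21 to 0.53 for Eomes, and, after the combination, 0.26 to 3.17 for Cd3e, 0.0058 to 1.126 for Foxp3, 0.46 to 1.58 for Gzmb, 0.39 to 1.27 for Ncr1, 0.35 to 1.30 for Klrb1c, -0.74 to -0.16 for Cd79a, 0.46 to 0.67 for Tcf7, 0.23 to 1.68 for Icos, 0.78 to 1.62 for Gzma and 0.0091 to 0.87 for Eomes. Those highest values of Cd3e and Gzmb came without m1. Of all genes, edgeR called 976 after VCR, against 2197 with DESeq2, 465 with only the groups compared, 253 without m5 and m9, 0 and 376 with the Y-linked term at 1 and 5 CPM, 9 at a threshold of 0.05, and 0 to 1998 with single tumors left out (0 without m2, m4 or m5, 1 without m11, 243 without m12, 281 without m1, 522 without m10 and 1998 without m6). DESeq2 called 278 after RCM1-NPFA, 60 after the combination, 160 in the main effect of VCR and 467 in the interaction, where edgeR called 0. edgeR called up to 8 after RCM1-NPFA and 1 in the interaction with 1 tumor left out, 44 after the combination and 341 in the main effect of VCR without m9, and 138 and 268 without m5 and m9. No paired analysis was possible because the groups share no replicate numbers. Ncr1, Ifng and Ms4a1 were at or near the floor of 3 counts in several tumors, and the part of depth in their values was not tested.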
